A study of Mus musculus with 7 samples.

Results

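The GIMAP genes encode the GTPases of immunity-associated proteins, and the mouse family was read here in 7 hearts, 4 of them control and 3 from a genetic model, without drug, of the myocarditis that immune checkpoint inhibitors (ICI) can cause. The family was taken as the 8 genes Gimap1, Gimap3, Gimap4, Gimap5, Gimap6, Gimap7, Gimap8 and Gimap9, matched by name to the 23420 gene rows of the table. All 8 had a row. Total RNA of flash-frozen ventricle (the tissue label reads whole heart) was sequenced in bulk from untreated mice aged 3 to 6 weeks. The control mice were Ctla4+/+;Pdcd1-/- and the ICI-myocarditis mice were Ctla4+/-;Pdcd1-/-, so both groups were labelled as lacking Pdcd1, the gene of the checkpoint receptor PD-1, and differed in the dose of Ctla4, the gene of the checkpoint receptor CTLA-4. Strain and sex are not given in the sources used here. The comparison asked which members of the family differed between inflamed and control hearts.

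GIMAP proteins bind GTP through a shared domain, and several are anchored in the membranes of internal organelles. They are best known for keeping lymphocytes alive: loss of Gimap5 depletes T cells in rodents, and loss of Gimap1 depletes mature T and B cells. The family is expressed in lymphocytes and also in endothelium, the lining of blood vessels. In bulk heart RNA a member's level therefore adds up cells of both kinds, and fewer cells of a type cannot be told apart from less RNA per cell.

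The 8 genes form 1 cluster of 124 kb on chromosome 6, from base 48647186 to base 48770851 of GRCm38 (RefSeq GRCm38.p6). In chromosome order they are Gimap8, Gimap9, Gimap4, Gimap6, Gimap7, Gimap1, Gimap5 and Gimap3, with Gimap6 and Gimap3 on the minus strand and the others on the plus strand. Gimap7 spans bases 48718621 to 48724636 and Gimap3 spans bases 48764464 to 48770851. These are the members whose change passed the test, and they are not adjacent: Gimap1 and Gimap5, which did not pass, lie between them.

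The 250 bases before the RefSeq start of 4 members are shown, for the pair that changed (Gimap3 and Gimap7) and the pair with the most reads (Gimap6 and Gimap4). The windows and motifs were chosen after the values and sequences had been seen. Capitals mark matches on either strand to any of 5 motifs: AGGAAG (ETS factors), TGTGGT (RUNX factors), the interferon-stimulated response element (a direct repeat of GAAA with a spacer of 2 bases), TTCNNNGAA (the STAT-binding GAS element) and AGATAA (known from factors of the GATA family). Windows run 5′ to 3′ on the gene's strand.
Gimap3, chr6:48770852-48771101, minus strand: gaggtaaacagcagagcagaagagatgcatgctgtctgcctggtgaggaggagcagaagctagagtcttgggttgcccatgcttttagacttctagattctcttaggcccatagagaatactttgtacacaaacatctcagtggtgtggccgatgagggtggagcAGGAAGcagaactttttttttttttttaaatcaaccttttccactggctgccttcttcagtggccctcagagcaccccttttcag
Gimap7, chr6:48718371-48718620, plus strand: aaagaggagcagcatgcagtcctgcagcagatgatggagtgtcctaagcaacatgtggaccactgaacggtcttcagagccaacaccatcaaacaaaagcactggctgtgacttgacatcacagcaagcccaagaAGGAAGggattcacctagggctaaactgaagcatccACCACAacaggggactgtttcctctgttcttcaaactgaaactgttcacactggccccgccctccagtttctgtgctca
Gimap6, chr6:48708245-48708494, minus strand: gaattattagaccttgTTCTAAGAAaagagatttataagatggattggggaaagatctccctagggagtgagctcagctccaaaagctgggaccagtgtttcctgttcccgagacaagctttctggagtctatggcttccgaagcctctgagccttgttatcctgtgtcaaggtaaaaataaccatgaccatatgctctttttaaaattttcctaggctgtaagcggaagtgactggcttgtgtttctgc
Gimap4, chr6:48684328-48684577, plus strand: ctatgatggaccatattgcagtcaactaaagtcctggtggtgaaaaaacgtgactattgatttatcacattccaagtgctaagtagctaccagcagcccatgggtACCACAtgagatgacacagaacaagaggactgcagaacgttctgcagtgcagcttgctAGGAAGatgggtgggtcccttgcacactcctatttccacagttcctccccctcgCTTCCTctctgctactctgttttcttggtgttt

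The ETS letters occurred in the windows of Gimap3 (1 match), Gimap7 (1 match) and Gimap4 (2 matches), and in 29.5% of all 32851 windows of this length in the RefSeq table. RUNX letters were present once each before Gimap7 and Gimap4 (14% of all windows), and GAS letters once before Gimap6 (7.02%). The response element (2.98%) and the GATA letters (9.99%) had no match in these 4 windows. ETS letters also stood before Gimap1, Gimap5, Gimap9 and 1 of the 2 starts of Gimap8, and RUNX letters before Gimap1, so neither set the pair that changed apart from members that did not pass. Matches describe letters and show no binding.

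Totals ranged from 20931730 to 39037176 reads assigned to genes per library, and the 8 members together took 2965 to 10302 of them. On the first principal component of all tested genes (68.6% of the variance) the ICI-myocarditis libraries lay from -105 to -58.9 and controls 1, 3 and 4 from 61.2 to 96.7, while control 2 stood apart at -2.25. Pdcd1, although labelled as deleted, had reads in every library, at 9.07, 244, 3.35 and 2.5 normalized counts in controls 1 to 4 and at 1096 to 1481 in ICI-myocarditis, and Ctla4 was higher in the hearts with 1 copy missing (by 2.4 on the log2 scale, limma adjusted p = 0.00849). Reads of single exons were not analysed here, so neither gene checked the labels. All 7 heart muscle genes examined, among them Myh6 and Ttn, had reads in every library.

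Gimap3 and Gimap7 rose in ICI-myocarditis hearts, and the other 6 members did not pass the test. Of the 8 members, 2 were called higher and 0 lower by limma at an adjusted p under 0.05, beside 11.7% of 15258 tested genes called higher and 4.0% called lower. The median log2 fold change of the 8 members was 0.615, against -0.0241 over all tested genes. Gimap7 reached the detection filter (10 normalized counts in 3 libraries) through the ICI-myocarditis libraries and control 2, so its count among the calls is no separate support. The share of tested genes called higher was 10.1% with edgeR's quasi-likelihood test, 14.2% with DESeq2, 16.3% with limma-voom, 14.9% with limma without control 2 and 12.9% in the authors' deposited table, and each of these called Gimap3 and Gimap7.

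Gimap3, a close relative of Gimap5 that has been tied to mitochondria in mouse leukocytes, had 31.3, 262, 45.8 and 27.5 normalized counts in controls 1 to 4 and 982, 908 and 1090 in ICI-myocarditis 1 to 3. Normalized counts are reads divided by a factor for each library's depth. Every ICI-myocarditis library lay above every control, and control 2 lay well above the other 3 controls. The means were 91.5 ± 114 (SD, n = 4) and 993 ± 91.3 (SD, n = 3). On the log2(normalized count + 1) scale Gimap3 rose by 4.10 (SE 0.677, limma adjusted p = 0.0058), with a 95% interval of 2.57 to 5.62, in 3 of 3 libraries. Without control 2 the rise was 4.82 (limma adjusted p = 1.05e-05), and edgeR's quasi-likelihood test on the recovered reads gave 3.40 (adjusted p = 0.021).

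Gimap7, which in its human form pairs with itself to speed GTP hydrolysis, had 4.03, 78.9, 8.93 and 5.005 normalized counts in the controls and 426, 307 and 363 in ICI-myocarditis. The controls other than control 2 rested on 4 to 8 reads each. As for Gimap3, the groups did not overlap. All ICI-myocarditis libraries lay above all controls for these 2 members, and for 17.3% of all tested genes. Means were 24.2 ± 36.5 (SD, n = 4) and 365 ± 59.6 (SD, n = 3). The log2 rise was 4.87 (SE 0.851, limma adjusted p = 0.00705), with a 95% interval of 2.95 to 6.78. It was 5.76 without control 2 (limma adjusted p = 1.74e-05) and 3.89 by edgeR's quasi-likelihood test (adjusted p = 0.0238). The authors' deposited table gave log2 fold changes of 3.44 for Gimap3 and 3.92 for Gimap7, with adjusted p-values of 1.05e-05 and 0.00429.

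**Figure D1:**
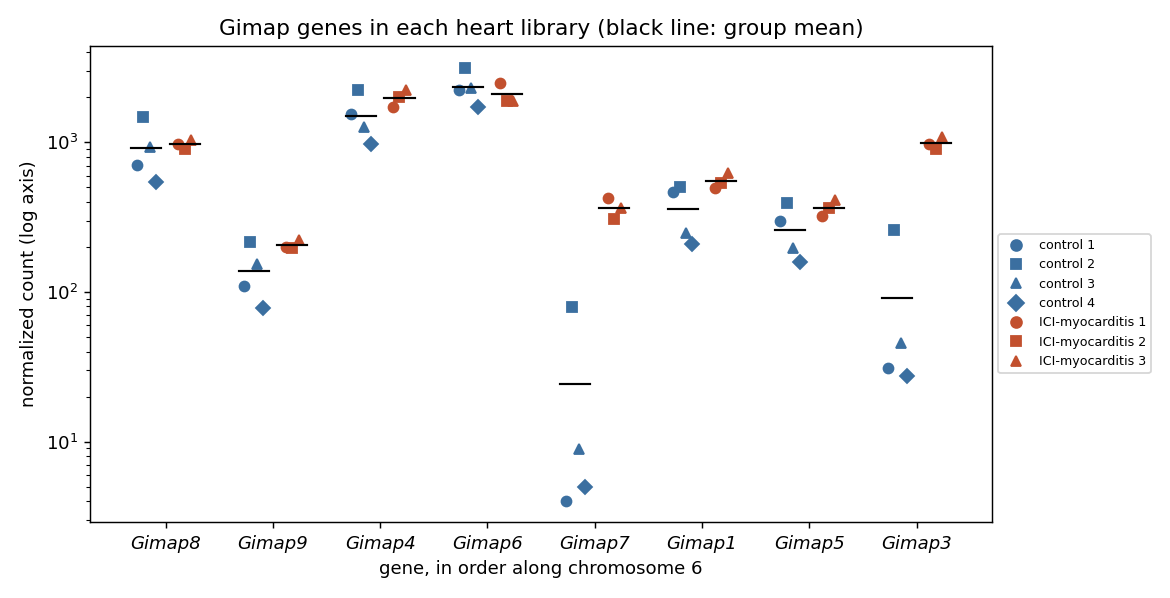
Normalized counts (log axis) of the 8 Gimap genes in chromosome order, with 1 point per library (blue, 4 controls; orange, 3 ICI-myocarditis) and a black line at each group mean. Gimap3 and Gimap7 are the genes whose groups do not overlap, and control 2 is the highest control for all 8 genes.

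Gimap5 and Gimap1, whose loss depletes lymphocytes, overlapped between groups. Gimap5 had 298, 394, 195 and 159 normalized counts in controls 1 to 4 and 320, 364 and 411 in ICI-myocarditis. Control 2 was higher than 2 of the 3 ICI-myocarditis libraries. Gimap5 differed by 0.56 on the log2 scale (limma adjusted p = 0.276, SE 0.319). Gimap1 stood at 465, 506, 248 and 209 in controls and at 494, 538 and 623 in ICI-myocarditis, a log2 difference of 0.72 (limma adjusted p = 0.177, SE 0.33). Its 95% interval ran from -0.0188 to 1.47. With limma-voom and quality weights on the recovered reads Gimap1 passed (0.84, adjusted p = 0.0272).

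Gimap4, which modulates the death of T cells, and Gimap6, which binds the autophagy protein GABARAPL2, had the most reads of the family. Gimap4 had 1537, 2224, 1265 and 973 normalized counts in controls and 1732, 2010 and 2230 in ICI-myocarditis (a log2 difference of 0.47 with SE 0.275, limma adjusted p = 0.293). Gimap6 had 2227, 3163, 2301 and 1717 in controls and 2490, 1886 and 1896 in ICI-myocarditis. Its highest library was control 2 and its lowest control 4, with all ICI-myocarditis libraries between them. Gimap6 differed by -0.15 on the log2 scale (limma adjusted p = 0.728, SE 0.237), with a 95% interval of -0.681 to 0.385, and its sign turned when control 2 was left out (0.00564) or with scaling by library size only (0.0117).

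Gimap8, the longest member, which carries several GTP-binding domains in 1 protein, and Gimap9 completed the family. Gimap8 had 704, 1480, 932 and 542 normalized counts in controls and 976, 910 and 1035 in ICI-myocarditis (a log2 difference of 0.19 with SE 0.313, limma adjusted p = 0.736). The ICI-myocarditis libraries lay close together inside the range of the controls. The sign of Gimap8 turned without control 4 and with a replicate block (-0.0266 in both). Gimap9 had 109, 217, 153 and 77.6 in controls and 201, 196 and 224 in ICI-myocarditis (a log2 difference of 0.67 with SE 0.348, limma adjusted p = 0.234). Only ICI-myocarditis 3 exceeded control 2 for this gene.

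**Figure D2:**
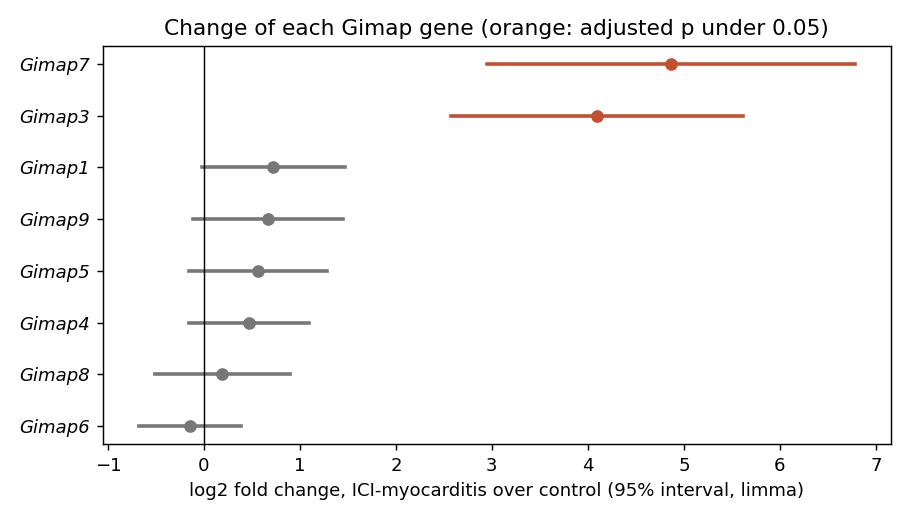
Log2 fold change of each Gimap gene, ICI-myocarditis over control, with the 95% interval of limma (bars), coloured where the adjusted p is under 0.05. Gimap7 (4.87) and Gimap3 (4.10) lie far to the right, and the intervals of the other 6 genes include 0.

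Whether members changed by different amounts was tested on the difference of their log2 levels within each library, for all 28 pairs, by exact two-sided permutation over all 35 ways to label 3 of the 7 libraries. Gimap3 and Gimap7 changed by 3.37 to 5.01 more on the log2 scale than each of the other 6 members. The 12 pairs behind this range had exact p-values of 0.0286 (the smallest the design allows) to 0.0571, and each had an adjusted p of 0.1. With no exact p under 0.0286, adjustment over 28 pairs could call a pair only if most pairs reached that value. The 12 pairs could therefore not pass by themselves, and the lack of adjusted calls does not show equal changes. None of the 28 pairs passed adjustment, while 8 had an unadjusted exact p of 0.0286 with the absolute difference as the statistic. That statistic was taken after a first run that doubled the smaller tail, which cannot go below an exact p of 0.0571 here and so could call no pair. Among the 15 pairs that held neither Gimap3 nor Gimap7, differences of change were 0.0543 to 0.872. Gimap7 changed by 0.769 more than Gimap3 (exact permutation p = 0.0571, adjusted 0.1).

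The make-up of the family signal differed between groups. Gimap3 and Gimap7 were summed after their values had been seen. Gimap3 and Gimap7 together held 0.657%, 4.09%, 1.06% and 0.877% of the summed normalized counts of the 8 members in controls 1 to 4, and 18.5%, 17.1% and 18.5% in ICI-myocarditis. Gimap6 held 38.0% to 46.3% in controls and 24.1% to 32.7% in ICI-myocarditis. Its share was thus lower in every ICI-myocarditis library although its own level overlapped between groups. Shares divide the same whole, so a larger share of Gimap3 and Gimap7 leaves less for the other members together. Gimap4 had a share of 24.6% to 28.6% in controls and 22.7% to 28.3% in ICI-myocarditis. The summed level of the family was 5375, 8324, 5150 and 3710 normalized counts in controls and 7621, 7119 and 7872 in ICI-myocarditis, with control 2 the highest of all 7 libraries.

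**Figure D3:**
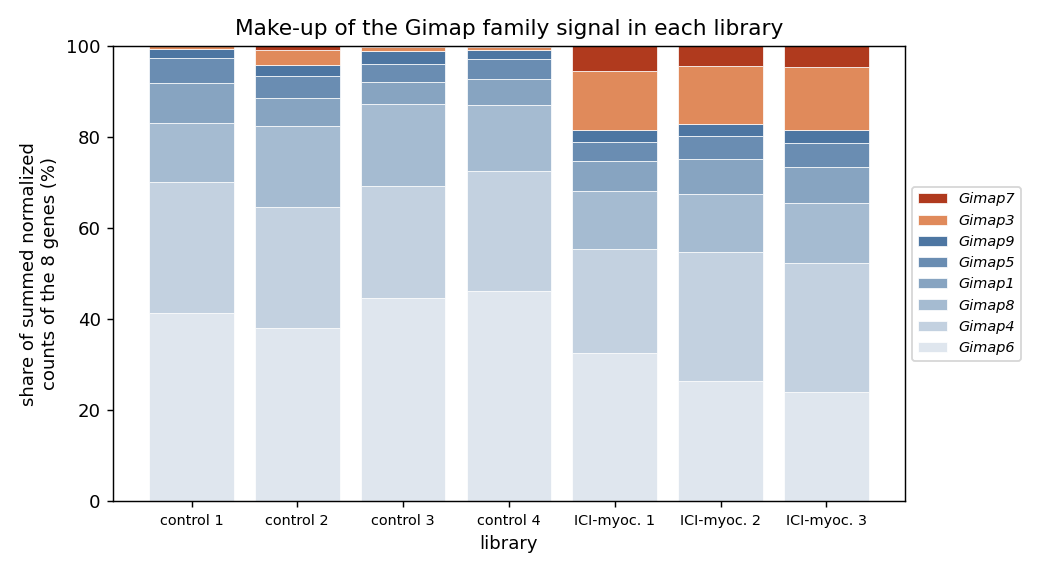
Share (%) of each Gimap gene in the summed normalized counts of the 8 genes, 1 bar per library. The orange and red segments (Gimap3 and Gimap7) take 17.1% to 18.5% in the ICI-myocarditis libraries and at most 4.09% in the controls.

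Per kilobase of exon, which allows genes to be compared with each other, the order of levels also differed between groups. Control means per kb were 816 ± 291 normalized counts for Gimap4 (SD, n = 4), 673 ± 172 for Gimap6, 247 ± 111 for Gimap8, 116 ± 48.8 for Gimap1, 84.7 ± 36.8 for Gimap9, 63 ± 25.5 for Gimap5, 35.5 ± 44.1 for Gimap3 and 10.4 ± 15.7 for Gimap7. The ranges of mean ± SD of neighbours in this order overlapped except for Gimap6 and Gimap8. In ICI-myocarditis Gimap4 (1080 ± 136 per kb, SD, n = 3) and Gimap6 (598 ± 99) still led. Gimap3 came next at 385 ± 35.4, above Gimap8 at 263 ± 16.8 and Gimap1 at 180 ± 21.4. Gimap7 followed at 157 ± 25.6, with an SD range that overlapped those of Gimap1 and Gimap9 (126 ± 9.02), and Gimap5 was lowest at 88 ± 10.9. Gimap3 thus moved from seventh to the third place in the family and Gimap7 from last to the sixth.

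Controls varied more than diseased hearts for every member. The coefficient of variation (SD over mean) ran from 25.5% (Gimap6) to 151% (Gimap7) among the 4 controls and from 6.39% (Gimap8) to 16.6% (Gimap6) among the 3 ICI-myocarditis hearts. It was not computed without control 2 or over all tested genes, so the spread is not shown to be particular to the family. Control 2 was the highest control for all 8 members, and control 4 the lowest for 7 of 8. Relative to the mean of the other 3 controls, control 2 was 1.52-fold (Gimap6) to 2.04-fold (Gimap8) higher for the 6 members that did not pass, 7.5-fold higher for Gimap3 and 13.2-fold higher for Gimap7. ICI-myocarditis means of Gimap3 and Gimap7 were still 3.8-fold and 4.62-fold above control 2.

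Markers of the cell types that express the family moved in opposite directions. Beside 11.7% of all tested genes, all 11 tested genes of a 12-gene T cell list were called higher, with a median log2 fold change of 4.48. Among them were Cd247 (2.38, limma adjusted p = 0.00422) and Cd3e (5.61, limma adjusted p = 0.00793), both parts of the T cell receptor complex. The remaining gene, Trat1, stayed under the filter. Summed over the list, T cell genes held 332 to 441 normalized counts in controls 1, 3 and 4, 1980 in control 2 and 6960 to 10700 in ICI-myocarditis. Control 2 was the highest control in the T cell sum, as it was for Gimap3 and Gimap7. By Dixon's ratio of gap to range among the 4 controls, control 2 reached 0.777 for Gimap3 and 0.754 for Gimap7, both under the critical value for 4 samples. Of 5 NK cell genes, 3 were called higher (Klrd1, Eomes and Klre1), with a list median of 3.85. These 3, like Cd3d and Zap70 of the T cell list, reached the filter only with the ICI-myocarditis libraries. Their count among the calls is no separate support. Ncr1 (1.05, limma adjusted p = 0.395) and Klrb1c (2.11, limma adjusted p = 0.0934) did not pass. Of 6 tested B cell genes, Cd22 and Cd79b were called higher and the median was 0.255.

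Endothelial genes went the other way. Of 16 tested, 0 were called higher and 5 lower (Kdr, Erg, Emcn, Tek and Cldn5), beside 4.0% of all tested genes called lower. The median log2 fold change of the 16 was -0.917. The largest fall was that of Kdr, a receptor for vascular endothelial growth factor, at -1.65 (limma adjusted p = 0.0301), and the smallest difference that of Eng at -0.27 (limma adjusted p = 0.674). The summed list held 54600 to 136000 normalized counts in controls and 42200 to 57200 in ICI-myocarditis. Of 4 tested lymphatic endothelial genes, Prox1, which heart muscle cells also express, was called lower, and Ccl21a was at 0 in all libraries. Macrophage genes were called higher for 7 of 8 (median 2.46), against 11.7% of all tested genes. Beside these, macrophage sums were 8880 to 11400 normalized counts in controls and 34100 to 68800 in ICI-myocarditis. Heart muscle genes also had a median under 0 (-0.784 over 7 genes), with 0 called higher or lower. The part of these cell types in the changes of the Gimap genes was not tested.

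**Figure D4:**
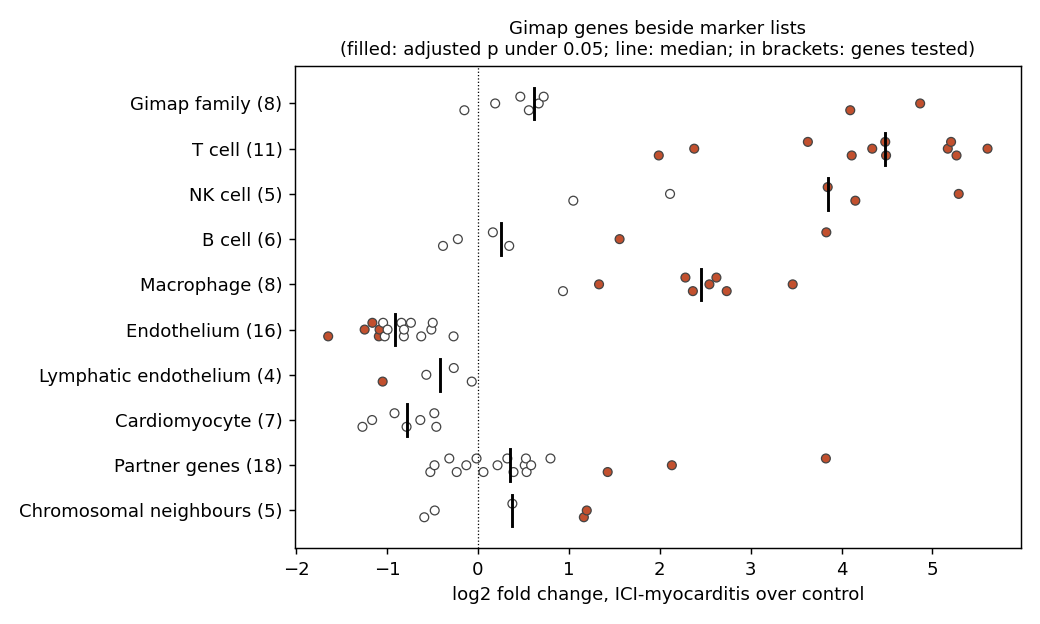
Log2 fold change, ICI-myocarditis over control, of the 8 Gimap genes and of the tested genes of 9 comparison lists (numbers in brackets), filled where the adjusted p is under 0.05, with a line at each median. Gimap3 and Gimap7 lie within the ranges of the T cell and of the NK cell genes. The other 6 members lie between the endothelial and the T cell medians, as does the median of all tested genes (-0.0241).

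Ratios to marker genes set the members beside these cell types library by library, as descriptions with no test. Lck, Cd3e and Pecam1 were chosen for this after their values were seen. Gimap3 amounted to 115%, 86.2%, 114% and 105% of the normalized counts of Lck, a kinase of the T cell receptor pathway, in controls 1 to 4, and to 91.7%, 98.0% and 75.6% in ICI-myocarditis. Against Cd3e it amounted to 155%, 104%, 342% and 440% in controls and 107%, 71.1% and 54.7% in ICI-myocarditis. Both ranges overlapped between groups, but against Cd3e only control 2 lay within the ICI-myocarditis range. Gimap7 amounted to 14.8% to 26.0% of Lck in controls and 25.2% to 39.7% in ICI-myocarditis, and to 20.0% to 80.0% of Cd3e in controls and 18.2% to 46.2% in ICI-myocarditis. Over the 11 tested T cell genes as references, the ratio of Gimap3 overlapped between groups for 6, was higher in all ICI-myocarditis libraries for 2 and lower in all for 3. For Gimap7 it overlapped for 7 and was higher for 4. The other 6 members had ratios below those of all controls for all 11 references, except Gimap9, for which 1 overlapped.

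Against Pecam1, an adhesion molecule of endothelial junctions, all 8 members had higher ratios in every ICI-myocarditis library than in any control, as did 39.4% of all other tested genes. Pecam1 itself had a log2 fold change of -0.74 (limma adjusted p = 0.105). Gimap4 amounted to 12.9% to 18.6% of Pecam1 counts in controls and 34.2% to 36.7% in ICI-myocarditis. For Gimap6 the ranges were 20.2% to 28% and 31.2% to 49.1%, and for Gimap1 they were 2.53% to 4.24% and 9.17% to 10.2%. Over the 16 endothelial genes as references, the groups did not overlap for 16 with Gimap3, Gimap7 and Gimap9, for 15 with Gimap1, Gimap4 and Gimap5, for 14 with Gimap8 and for 10 with Gimap6. All 16 references had log2 fold changes from -1.65 (Kdr) to -0.27 (Eng), so a gene with little change tends to rise in these ratios. The share of all tested genes was computed for Pecam1 only, and these counts do not set the members apart.

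**Figure D5:**
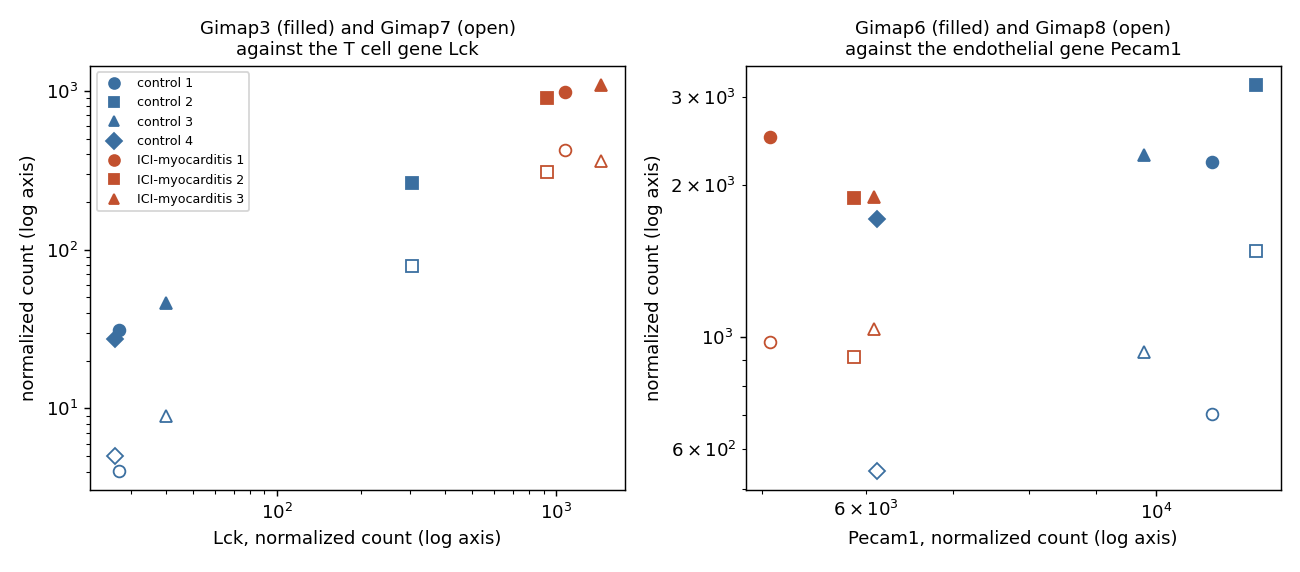
Left, Gimap3 (filled) and Gimap7 (open) against the T cell gene Lck; right, Gimap6 (filled) and Gimap8 (open) against the endothelial gene Pecam1; all as normalized counts on log axes, 1 symbol per library. On the left control 2 lies between the other controls and the ICI-myocarditis libraries; on the right the ICI-myocarditis libraries lie at low Pecam1 with Gimap6 and Gimap8 inside the control range.

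The genes most like each member over the 7 libraries, by Pearson r of log2(normalized count + 1), fell into different sets. Gimap3 was most like Tap1 (r = 0.9995, 7 libraries), Gbp6 (0.9987) and Lck (0.9987). For Gimap7 these were Igtp (0.999), Melk (0.9981) and Gbp3 (0.998). Tap1 encodes a peptide transporter of antigen presentation, and Gbp6, Igtp and Gbp3 encode interferon-induced GTPases of other families. Gimap5 was most like Nsmf (0.9971), Abi3 (0.9955) and Prkch (0.9888), and Gimap4 most like Madd (0.9951), Pld2 (0.9943) and Tctn1 (0.9925). Gimap1 was most like Vash2 (0.9908), Ccdc154 (0.9903) and Sipa1 (0.989), and Gimap9 most like Donson (0.9925), Samd9l (0.9915) and Zfp783 (0.989). Lower values were found for Gimap8, with Ankrd16 (0.9834), Dnmt3b (0.9816) and Snapc4 (0.9815), and for Gimap6, with Pde9a (0.9771), Masp2 (0.9733) and Klk9 (0.9706). These r values are the highest of 15258 tested genes and carry no p, and all points share the difference between groups and each library's depth.

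Within the family, Gimap3 and Gimap7 had the highest correlation (r = 0.998 over 7 libraries). Gimap1, Gimap4 and Gimap5 correlated with each other at 0.941 to 0.985. Gimap6 correlated with Gimap3 and Gimap7 at 0.0983 and 0.114 over the 7 libraries and at 0.915 and 0.873 over the 4 controls. Among controls alone Gimap3 and Gimap7 correlated at 0.994 and Gimap8 and Gimap9 at 0.991. Correlations over controls rest on 4 points, with control 2 the highest for all 8 members.

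Genes tied to GIMAP proteins or to lymphocyte survival and autophagy mostly did not pass. The median log2 fold change of 18 such genes was 0.358. Of them, 3 were called higher and 0 lower, beside 11.7% and 4.0% of all tested genes, which does not set the list apart. These were Il7r, the receptor for the T cell survival cytokine interleukin-7 (log2 fold change 3.83, limma adjusted p = 0.00834), and the cell death genes Bid (2.13, limma adjusted p = 0.00702) and Bak1 (1.43, limma adjusted p = 0.0036). Il7r had 16.1, 43.2, 21.2 and 3.75 normalized counts in controls and 235, 139 and 410 in ICI-myocarditis. The lowest values of the list were those of the autophagy genes Map1lc3a (-0.52, limma adjusted p = 0.492) and Map1lc3b (-0.48, limma adjusted p = 0.402). Of 8 genes that mark naive or recirculating T cells, 4 were called higher, among them Ccr7, Tcf7 and Il7r, with the highest value after Il7r for Ccr7 (3.25, limma adjusted p = 0.0165). The lowest values were those of S1pr1, which endothelium also expresses (-0.43, limma adjusted p = 0.321), and Satb1 (-0.55, limma adjusted p = 0.234).

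Genes beside the cluster were read for comparison. Of the 4 nearest protein-coding genes with a row on each side, 5 were tested and 2 called higher, beside 11.7% of all tested genes. On the far side of Gimap3, Tmem176b rose from 1074 ± 176 (SD, n = 4) to 2418 ± 479 normalized counts (SD, n = 3), by 1.17 on the log2 scale (limma adjusted p = 0.00795), and Tmem176a rose by 1.198 (limma adjusted p = 0.0108). Both encode membrane proteins of myeloid cells. On the side of Gimap8, Zfp775 (-0.59), Repin1 (-0.47) and Rarres2 (0.38) did not pass (limma adjusted p = 0.109, 0.23 and 0.349). Gm5111, Aoc1 (listed as Abp1) and Doxl1 (listed as 1600015I10Rik) stayed under the filter. The 6 members between these flanks that did not pass lay in the same 124 kb as the pair that did.

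Near-identical sequence could blur members. In the transcripts of GENCODE release M21, 7.52% of the 50-base windows of Gimap3 and 4.53% of those of Gimap5 occurred in the other gene, and no 150-base window (the length of 1 read) was shared between any members. Of the 150-base windows of Gimap1, 26.1% were also present in Gimap1os, an antisense gene that was not analysed here. The search covered both strands and did not record which one matched. Another gene, Gm28053, shared 1.6% of the 150-base windows of Gimap1 and 0.117% of those of Gimap5. How strand was used in counting is not given in the sources used here, so Gimap1 counts may hold antisense reads.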

How the data were processed

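Bulk RNA sequencing of 7 mouse hearts (4 control, 3 ICI-myocarditis) was analysed from 1 table. Reads were aligned with STAR 2.7.3 to GRCm38, per the submitters' processing notes; the counter, annotation and use of strand are not given in the sources used here. The authors deposited a normalized signal per gene and library, which is the read count divided by 1 size factor per library. The authors also deposited a log2 fold change with its error, a test score, and p-values with adjusted p-values. Every value divided by its library's step gave a whole number within 0.001, from which reads were recovered. No column belonged to other samples. Rows whose names had become dates (27) and repeated names (2) were present.

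The 15258 genes that reached 10 normalized counts in 3 or more libraries entered limma 3.58.1 in R 4.3.3, with trend and robust variance, on log2(normalized count + 1). A larger added count shrinks changes of low genes: Gimap7 rose by 4.95 with 0.5 added and by 4.35 with 5 added. The rise of 4.87 on the scale used is still larger than those of edgeR (3.89) and DESeq2 (3.91). P-values were adjusted by Benjamini-Hochberg over all tested genes, with a threshold of 0.05. edgeR 4.0.16, DESeq2 1.42.0 and limma-voom on recovered reads, other scalings, pseudocounts of 0.5 and 5, filters, a replicate block and leaving out each library were alternatives. Intervals cover the spread between these libraries only.

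All 8 members were named. Of each list, the 2 tested genes with the lowest and the 2 with the highest log2 fold change were eligible for values, as were all chromosomal neighbours and the 3 genes most like each member (predicted genes were passed over). Bak1, Lck and Pecam1 fall outside this rule and were, with the ratios to every gene of the T cell and endothelium lists, chosen after their values were seen, as were the fits of the lists without control 2 and the absolute difference as the permutation statistic for pairs, which replaced a doubled smaller tail once that output had been seen. The members and lists were chosen with earlier results of these data known. Positions and upstream sequence are from RefSeq GRCm38.p6 (8 of 8 members matched), and exon lengths and transcript windows from GENCODE M21. Values of some list genes are not reported here.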

Additional observations from a re-analysis of the deposited data

How the results depend on the processing

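Gimap3 was called higher in 18 of 18 alternatives (log2 fold change 3.40 to 4.82, largest adjusted p = 0.0272) and Gimap7 in 17 of 17 (3.89 to 5.76, largest adjusted p = 0.031), by limma, edgeR, DESeq2 or limma-voom. Requiring 10 normalized counts in all 7 libraries left Gimap7 untested, so 1 member was called. Gimap6 changed sign with scaling by library size only (0.0117) and without control 2 (0.00564). Gimap8 did so with the replicate block (-0.0266) and without control 4 (-0.0266). With 1 library left out, Gimap6 ranged from -0.288 to 0.00564 and Gimap8 from -0.0266 to 0.456. Gimap1 passed with limma-voom (0.84, adjusted p = 0.0272); the causes were not tested. Over all genes, 2397 were called, 4003 with limma-voom, and 986 to 3340 with 1 library left out (1396 without ICI-myocarditis 2, 986 without ICI-myocarditis 3, 1508 without control 1, 1298 without control 3). Scaling by library size only moved the median log2 fold change from -0.0241 to 0.136. With the replicate block, 1780 genes and 2 members were called. Same-numbered libraries correlated at -0.271, -0.206 and -0.0784, and differently numbered ones at -0.477 to 0.451. These few values gave no sign that the numbers pair the samples, but cannot exclude it. The count of member pairs with an adjusted p under 0.05 was 0 in every alternative run. Even with all 7 libraries and the absolute difference, a call needed most of the 28 pairs to reach the smallest exact p. Unadjusted, 8 pairs had an exact p under 0.05 by the absolute difference and 13 with a pseudocount of 5. The doubled smaller tail, the form run first, cannot go below 0.0571 and could call none. With 1 library left out the smallest exact p was 0.0667 to 0.1, so those settings could call none either. Without control 2, 1 gene each was called lower in the naive T cell, heart muscle and neighbour lists, against 0. In controls 1, 3 and 4, Gimap7 rested on 4 to 8 reads, which limits its fold change.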
